A study of Zea mays with 157 samples.

Results

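Anthocyanins are the red and purple flavonoid pigments of maize. Their synthesis was followed here through the mRNA of 10 genes, 7 for enzymes and 3 for transcription factors, taken from 44146 B73 gene identifiers in all. The members were chosen by gene name from knowledge of the pathway and looked up by identifier: c2 (Zm00001d052673), whp1 (Zm00001d007403), chi1 (Zm00001d034635), pr1 (Zm00001d017077), a1 (Zm00001d044122), a2 (Zm00001d014914), bz1 (Zm00001d045055), r1 (Zm00001d026147), b1 (Zm00001d000236) and pl1 (Zm00001d037118). All 10 were listed in the mRNA tables of the inbred line B73 and of the F1 hybrid of B73 and Mo17. The deposited pairing list gave a Mo17 identifier for 2 of them, a2 (Zm00014a027648) and bz1 (Zm00014a031193), and Mo17 values of the other 8 were not analysed here.

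The plants were untreated and grown in a greenhouse. Each line contributed 1 mRNA and 1 circular RNA library from each of 26 tissues, and each library mixed equal amounts of 3 extractions of 5 to 10 plants, so the spread given below is between tissues and not between plants. The 11 leaf tissues were the husk leaf, the ear-leaf, the third leaf at stage V3, and the topmost leaf (V3), first leaf (V3), tip of the stage 2 leaf (V5) and base of the stage 2 leaf (V5), the last 4 each as a library with the suffix L and one with the suffix N, letters that the labels do not explain. The 9 meristem and inflorescence tissues were the SAM (read here as shoot apical meristem) at V1, V3 and V4, ears of 2 mm, 5 mm and 1 cm, the inflorescence, and tassels of 2 mm and 1 cm. The remaining 6 were stem and internode (V6), primary root at the stages labelled V1 and 6 DAS, and embryo and endosperm (R2). The tissue labels were not checked against marker genes, because the files pair no symbols with identifiers.

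In the pathway, chalcone synthase joins a phenylpropanoid precursor to malonyl units, chalcone isomerase closes the flavonoid ring, a hydroxylase sets the pigment's colour class, and a reductase, a dioxygenase and a glucosyltransferase turn the colourless intermediates into stable pigment. The early steps also feed colourless flavonoids, while the late steps lead to coloured products. Transcription of the structural genes in maize is known to need a basic helix-loop-helix protein of the R/B family together with a MYB protein of the C1/Pl family, and alleles of r1, b1 and pl1 set which plant parts turn purple.

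Values are in scaled units, that is, the deposited value of a library divided by 1 factor per library set through genes paired in all 3 lines (the paired-gene scale); printed F1 values of the 8 genes without a Mo17 identifier are on the scale of B73, while F1 organ and leaf tests used the paired-gene scale. The unit of the B73 and F1 tables is named by no label or header, so a gene is compared between tissues and lines, and different genes are not compared in level. A log2 difference is of log2(scaled value + 1), which understates the change of low genes, and adjusted p-values come from limma over all genes of a table. In whole-tissue RNA, fewer cells of a type and less RNA per cell cannot be told apart.

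The genes differed in the tissues where their mRNA was high. The mRNAs of c2, whp1, pr1 and pl1 were high in leaves, that of b1 was high in stem, meristems and husk leaf, and in B73 and F1 those of a1 and bz1 were highest in the husk leaf, low in most other leaves and intermediate in meristems and tassels. In B73 the husk leaf was the highest of 26 tissues for 5 of the 9 members that reached 1 unit in at least 3 libraries, namely c2, chi1, pr1, a1 and bz1. Of all genes held to the same minimum, 8.65% were highest there. bz1 met that minimum only with the husk leaf, as it reached 1 unit in 2 of the other tissues. Its husk leaf value of 2.15 was also close to the 2.04 of the 1 cm tassel. In F1 it was the highest for 5 of 8 members, c2, whp1, chi1, pr1 and a1, beside 10% of the genes listed for the B73 genome alone. The husk leaf was 1 library in each line.

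**Figure D1:**
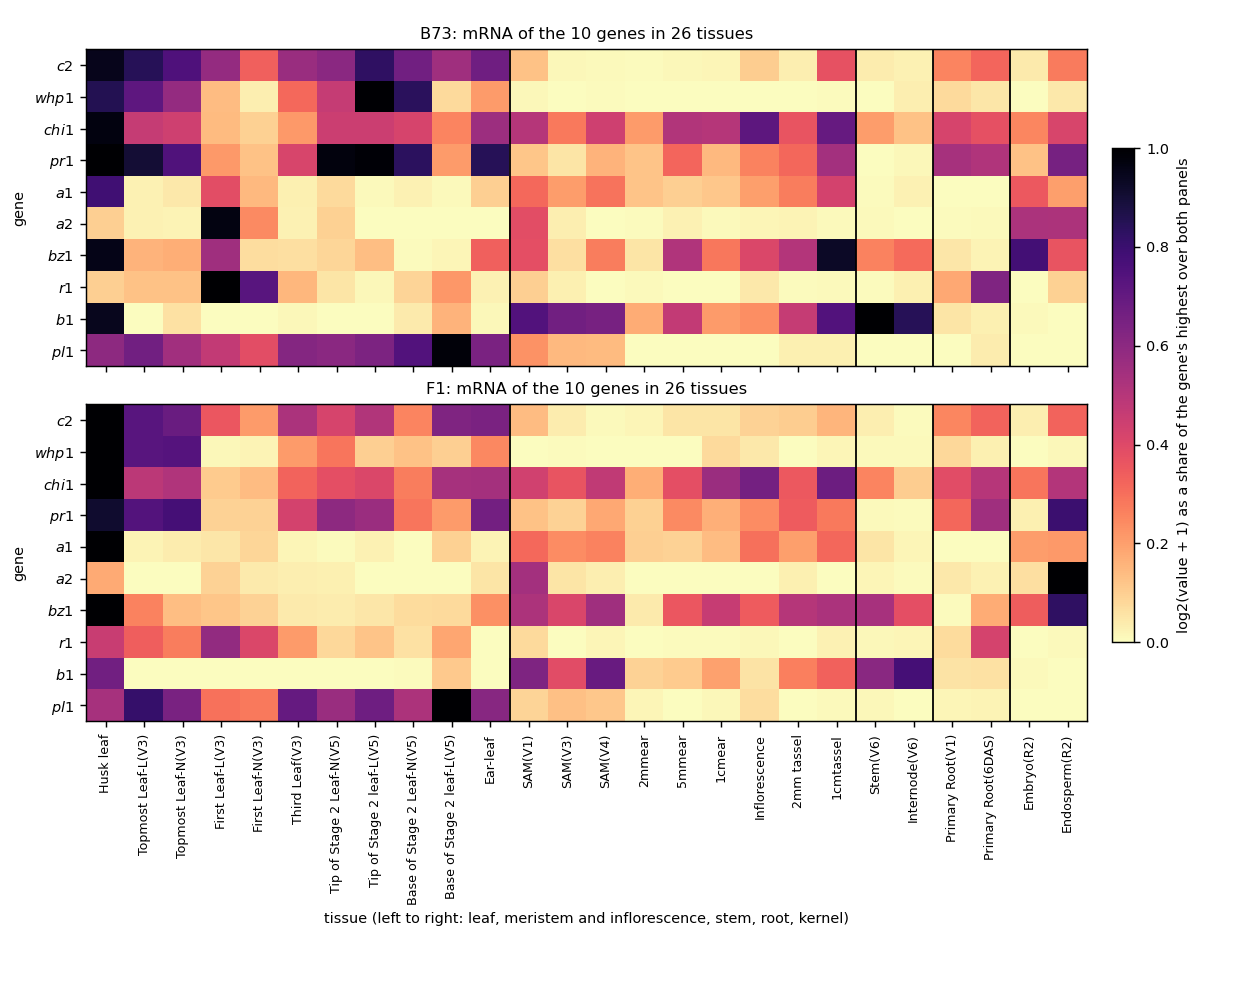
mRNA of the 10 genes (rows) in 26 tissues (columns, grouped by organ) of B73 (top) and F1 (bottom), as log2(value + 1) divided by the gene's own highest over both panels. The first column, the husk leaf, is dark for c2, whp1, chi1, pr1, a1 and bz1 in both lines. The stem and SAM columns are dark for b1 in B73 and, apart from the V4 SAM, paler in F1.

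The chalcone synthase genes c2 and whp1 encode near-identical enzymes, and reads could be split between them, so their separate values are uncertain. In B73 leaves c2 ranged from 5.96 (first leaf, N) to 249.5 (husk leaf), with a median of 47.8 over 11 tissues. In the 9 meristem and inflorescence tissues it ranged from 0.0384 to 7.85 (1 cm tassel), with a median of 0.0976. All leaf values but the lowest lay above the tassel value. c2 was higher in leaf by 4.97 ± 0.53 (SE, as in all differences below) on the log2 scale (adjusted p = 4.51e-08). Outside those organs it reached 5.59 and 3.42 in the roots at 6 DAS and V1, 3.998 in endosperm, and under 1 unit in embryo, stem and internode.

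For whp1, the second chalcone synthase gene, B73 leaf values ran from 0.0817 to 10.6 (tip of the stage 2 leaf, L), with a median of 2.12, and it stayed between 0 and 0.0382 in the meristem and inflorescence tissues, so the groups did not overlap. The leaf difference was 1.67 ± 0.39 (adjusted p = 6.25e-04). In F1 both genes were again higher in leaf, c2 by 4.05 ± 0.57 (adjusted p = 2.40e-06) and whp1 by 1.06 ± 0.35 (adjusted p = 0.00956). The whp1 groups overlapped in F1, where leaf values ran from 0.0340 to 10.8 with a median of 0.677. The F1 1 cm ear was at 0.207.

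pr1 encodes the flavonoid hydroxylase that shifts pigment from red to purple forms. Its B73 leaf values ranged from 0.547 (first leaf, N) to 30.7 (husk leaf), with a median of 16.8. The tips of the stage 2 leaf reached 29.6 (L) and 28.02 (N), close to the husk leaf. Meristem and inflorescence tissues ranged from 0.202 to 5.59 (1 cm tassel), with a median of 0.736. The leaf difference was 2.15 ± 0.59 (adjusted p = 0.00249) in B73 and 1.63 ± 0.44 (adjusted p = 0.00233) in F1, where it did not pass with the values as deposited (0.70, adjusted p = 0.112). Endosperm was at 8.66 in B73 and at 14.8 in F1, while the embryo was at 0.547 and 0.111. In both lines the endosperm thus lay above the embryo.

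chi1, for chalcone isomerase, did not separate the organs. It reached 328.9 in the B73 husk leaf and 388.1 in that of F1. The next highest tissue was the inflorescence at 70.4 in B73, 4.67 times lower, and the 1 cm tassel at 56.1 in F1, 6.92 times lower. On the paired-gene scale the F1 inflorescence was at 30.66 and the F1 1 cm tassel at 30.59. Without the husk leaf, B73 leaves ranged from 0.780 to 27.02 with a median of 12.0, and the meristem and inflorescence tissues from 2.49 to 70.4 with a median of 19.02. The ranges overlapped, with the 2 first leaf libraries below all 9 of the latter. The test of leaf against meristem and inflorescence gave -0.54 ± 0.77 (adjusted p = 0.531) in B73 and 0.23 ± 0.71 (adjusted p = 0.776) in F1.

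a1 encodes dihydroflavonol reductase, the first of the late steps. The B73 husk leaf was at 67.4 units. The other 10 leaf tissues ranged from 0.0623 to 6.96 (first leaf, L), with a median of 0.220. The 9 meristem and inflorescence tissues ranged from 0.696 to 8.92 (1 cm tassel), with a median of 2.02. So 8 of 11 leaf tissues lay below every meristem and inflorescence tissue, and the husk leaf lay 7.56 times above the highest of them. With the husk leaf the organ difference was -0.61 ± 0.63 (adjusted p = 0.389). Without it, a setting chosen after the husk leaf values were seen, a1 was lower in leaf by a log2 difference of -1.10 ± 0.38 (adjusted p = 0.0125).

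The F1 hybrid had the same arrangement for a1. Its husk leaf was at 214.3 units on the B73 scale, 46.8 times the next tissue, the 1 cm tassel at 4.58. On that scale the other 10 leaf tissues ranged from 0 to 0.655, and the meristem and inflorescence tissues from 0.648 to 4.58. There 9 leaf tissues lay below all 9 of those and 1 lay just above the lowest. This order depends on the scale. On the paired-gene scale the husk leaf was at 145.6, and the V1 SAM came next at 3.15. The base of the stage 2 leaf (L, 0.604) and the first leaf (N, 0.576) then lay above the 2 mm ear (0.454), the lowest of the meristem and inflorescence tissues. The organ difference was -0.44 ± 0.68 (adjusted p = 0.571) with the husk leaf and -1.07 ± 0.19 (adjusted p = 5.29e-05) without it. In the kernel, a1 was at 5.67 in the B73 embryo and 1.97 in the endosperm, against 1.99 and 2.13 in F1.

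a2, for the dioxygenase that forms anthocyanidins, was low almost throughout. In B73 it passed 1 unit in a single library, the first leaf labelled L at 2.50, and its next values were the embryo at 0.976, the endosperm at 0.963 and the V1 SAM at 0.641. The husk leaf, where a1 was highest, held 0.139 units of a2 and was the sixth highest tissue. a2 did not reach the minimum for the test. bz1, for the glucosyltransferase that makes the pigment stable, reached 2.15 in the B73 husk leaf and 2.04 in the 1 cm tassel. It passed 1 unit in 1 more tissue, the embryo, at 1.54. Over the other 10 leaf tissues bz1 had a median of 0.139, and over the meristem and inflorescence tissues one of 0.581. Its organ difference, given by the fit without the filter on low values, was -0.26 ± 0.21 (adjusted p = 0.3396) in B73 and -0.38 ± 0.18 (adjusted p = 0.0742) in F1. It depends on the scaling. With values as deposited bz1 passed as lower in leaf in B73 (-0.44, adjusted p = 0.0218) and F1 (-0.78, adjusted p = 0.00104). The median difference of all genes was then -0.90 and -1.22, so bz1 was less low in leaf than the median gene. With F1 scaled through genes of the B73 genome alone it passed too (-0.58, adjusted p = 0.0235), beside a median of -0.47. That scale was not set through paired genes such as bz1.

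The regulators had tissue patterns that differed from each other. pl1, a MYB partner, was at 2.01 to 15.4 units in the B73 leaves, with a median of 4.83 and its highest values at the base of the stage 2 leaf (15.4 for L and 7.36 for N). It stayed between 0 and 0.916 in the meristem and inflorescence tissues and at or below 0.108 in root, stem and kernel. The leaf and meristem groups did not overlap in either line. The difference was 2.32 ± 0.23 (adjusted p = 1.50e-08) in B73 and 2.28 ± 0.28 (adjusted p = 2.67e-07) in F1, where the leaves ranged from 1.22 to 16.2.

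b1, a helix-loop-helix regulator that acts in plant body tissues, had the opposite pattern. The B73 stem held 16.7 units, the husk leaf 13.99 and the internode 10.4. The 3 SAM libraries held 7.52, 5.79 and 5.47 (V1, V3 and V4), the 1 cm tassel 7.45, and the other inflorescence tissues 0.652 to 2.85. Apart from the husk leaf, the leaves ranged from 0 to 0.569, below all 9 meristem and inflorescence tissues. b1 was lower in leaf by a log2 difference of -1.54 ± 0.46 (adjusted p = 0.00487), and without the husk leaf by one of -1.89 ± 0.30 (adjusted p = 1.02e-05).

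In F1, b1 was highest in the internode at 8.31, followed by the V4 SAM at 6.29 and the husk leaf at 5.76. Its organ difference was -0.76 ± 0.33 (adjusted p = 0.0412). The call was lost with L and N averaged per leaf position (-0.65, adjusted p = 0.155) and without the filter on low values (-0.76, adjusted p = 0.0609), and without the husk leaf the adjusted p was 0.00209.

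r1, the other helix-loop-helix regulator, passed 1 unit in 3 B73 libraries: the first leaf with 5.16 (L) and 2.75 (N), and the 6 DAS root with 2.14. In the V1 root it was at 0.393, and in the 9 meristem and inflorescence tissues it ran from 0 to 0.200. In F1 the same 3 libraries held 1.89, 1.1002 and 1.15 units, and the husk leaf 1.29. The highest r1 levels thus fell in seedling tissues in which b1 was at 0 (first leaf) or 0.0902 (6 DAS root) in B73. On the paired-gene scale r1 did not reach the minimum for the organ test; in the fit without that filter its leaf difference was 0.57 ± 0.27 (adjusted p = 0.0938) in B73 and 0.59 ± 0.15 (adjusted p = 0.00225) in F1. With F1 scaled through genes of the B73 genome alone r1 did reach it, and the leaf difference was 0.61 ± 0.16 (adjusted p = 0.00236). It did so through 3 leaf libraries, with 0 meristem and inflorescence libraries at 1 unit. Its entry thus rested on the leaf values, and the call adds no support. That fit called 31885 of 42304 genes. The fits without the filter called 20232 of 39513 in B73 and 34260 of 64379 in F1.

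Of the 7 members tested in B73, c2, whp1, pr1 and pl1 were called higher in leaf and b1 lower. Over all 24518 genes tested, 74.3% were called, 8476 higher and 9733 lower, so 5 of 7 is close to the share of all genes. F1 gave the same 5 calls among 7 members, beside 73.8% of 41144 genes, 14511 of them higher and 15847 lower. In B73, whp1 and pl1 reached 1 unit in 0 meristem and inflorescence libraries and c2 in 2, and b1 did so in 1 leaf library. These members thus met the minimum of 3 libraries only through the group where they were high. Without the husk leaf a1 joined the lower calls in both lines, beside 76.4% of genes called in B73 and 77.3% in F1. The split depends on scaling. With values as deposited it was 4624 higher and 14862 lower in B73 and 6079 and 28593 in F1, with median log2 differences of all genes at -0.90 and -1.22. With F1 scaled through genes of the B73 genome alone it was 10965 and 20920, with a median at -0.47. The direction of the 5 called members was the same under each of these scalings. Leaf values above every meristem and inflorescence value were found for whp1 and pl1 in B73, where 16.2% of genes had them, and for c2 and pl1 in F1, where 14.6% of genes of the B73 genome alone had them.

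**Figure D2:**
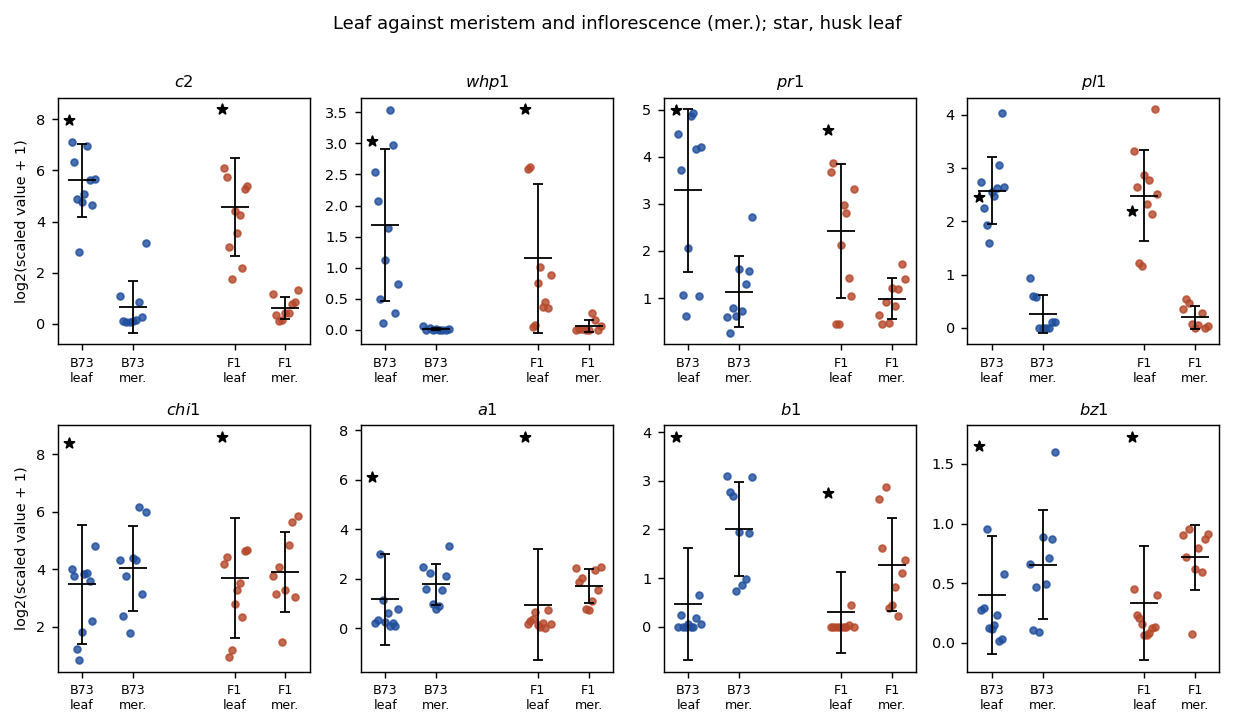
Leaf (11 tissues) and meristem and inflorescence (9 tissues) of B73 and F1 for 8 genes, as log2(scaled value + 1); points are tissues, the star is the husk leaf, and bars are mean and SD between tissues. F1 values are on the B73 scale except for bz1; c2, whp1, pr1 and pl1 lie higher in leaf, while for a1 and b1 most leaf points lie below the meristem points; the star stands above all of these for a1 in both lines and for b1 in B73, but not for b1 in F1.

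Leaf libraries with the suffix L were set against those with N at the same 4 leaf positions, with the position as a block. None of the 5 members tested passed in B73, where 19.4% of 20142 genes were called, or in F1, where 18.3% of 33641 were. pl1 was higher in L at all 4 positions in both lines. At the base of the stage 2 leaf it held 15.4 (L) and 7.36 (N) units in B73 and 16.2 and 3.40 in F1. The difference was 0.49 ± 0.17 (adjusted p = 0.0951) in B73 and 0.74 ± 0.31 (adjusted p = 0.149) in F1, where it was 0.34 (adjusted p = 0.257) without the base pair, and 19.3% of B73 genes and 21% of F1 genes of the B73 genome alone were likewise higher in L at all 4.

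c2 gave 0.94 ± 0.49 (adjusted p = 0.219) in B73 and 1.31 ± 0.44 (adjusted p = 0.0882) in F1. In B73 it was higher in L at 3 positions, for example 28.2 against 5.96 in the first leaf, and lower at the base of the stage 2 leaf, 24.2 against 47.8. Without the base pair, the one in which c2 was lower in L, the B73 difference was 1.58 ± 0.28 (adjusted p = 0.0279). That setting called 2289 of 19317 genes. Without the topmost, first and tip pairs c2 did not pass, at 0.99, 0.57 and 0.64 (adjusted p = 0.315, 0.526 and 0.503). In F1 c2 was higher in L at all 4 positions, and the base pair had the largest gap, 38.2 against 3.48; without it the F1 difference was 0.73 (adjusted p = 0.0867). The base of the stage 2 leaf also set pr1 and whp1 apart in B73, with 1.06 (L) against 16.8 (N) for pr1 and 0.209 against 6.90 for whp1, while their F1 values there were 1.06 against 1.68 and 0.274 against 0.361.

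The first leaf of B73 had higher values in L for every member but b1, which was at 0 in both. The share of all genes higher in L at this position was not computed, so nothing particular to these genes is read from it. a1 was at 6.96 (L) and 1.20 (N), a2 at 2.50 and 0.369, bz1 at 0.942 and 0.0872, and r1 at 5.16 and 2.75. In the F1 first leaf a1 was at 0.289 (L) and 0.565 (N), a2 at 0.128 and 0.0531, and bz1 at 0.152 and 0.115. The Mo17 first leaf held 0.0441 (L) and 0.0244 (N) units of a2 and 0.0677 and 0.0421 of bz1. Each of these values is 1 library, and a1, a2, bz1 and r1 did not reach the minimum for the L and N test.

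**Figure D3:**
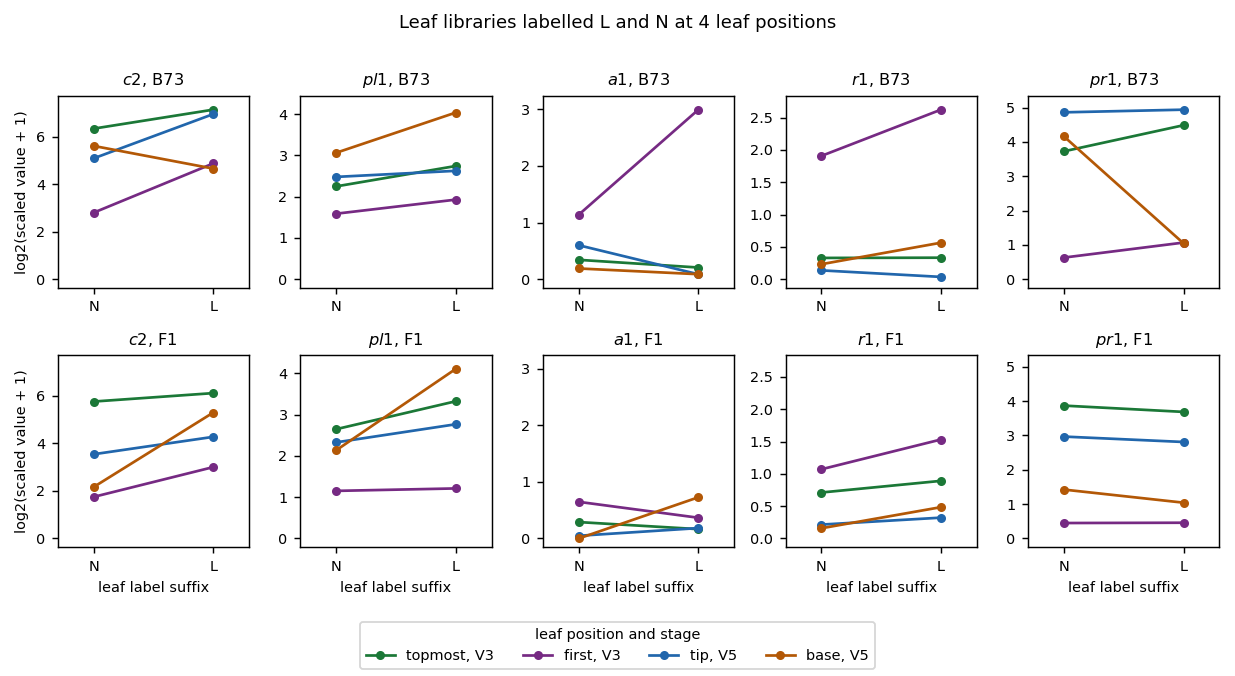
Paired leaf libraries with the suffixes N and L at 4 leaf positions, for 5 genes in B73 (top) and F1 (bottom), as log2(scaled value + 1) with F1 on the B73 scale; each line joins the libraries of 1 position and stage. pl1 is higher in L at all 4 positions in both lines, and in the first leaf a1 is higher in L in B73 (6.96 against 1.20 units) and lower in L in F1 (0.289 against 0.565).

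F1 was set beside B73 tissue by tissue for the 8 members listed for the B73 genome alone. Their F1 values were put on the scale of the B73 library of the same tissue through all genes of that kind, and no source used here says how reads of the Mo17 allele were assigned to such a gene. A gene was called where the median log2 difference over 26 tissues was at least 1 in size and of 1 sign in at least 22 tissues, with no test, since the tables were normalized separately. None of the 8 was called, and 1.43% of 18525 genes were. Median differences (F1 minus B73) ran from -0.11 for pr1 to 0.04 for chi1, and that of chi1 was -0.11 without the husk leaf and -0.22 with paired-gene scaling. Over the 11 leaf tissues alone the median was -1.02 for c2 and -0.61 for pr1, each lower in F1 in 9 tissues, 1 short of the 10 that the rule asks for there, and pr1 was also under the size of 1. Over the meristem and inflorescence tissues alone c2 had a median of 0.09 and b1 one of -0.74, lower in F1 in 8 of 9.

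Single tissues departed from that. In the husk leaf a1 was 3.18 times higher in F1 (214.3 against 67.4) and r1 6.45 times higher (1.29 against 0.1999), while b1 was 2.43 times lower (5.76 against 13.99) and pr1 1.36 times lower (22.6 against 30.7). On the paired-gene scale, which puts F1 lower in the husk leaf, these were 2.16 and 4.38 times higher and 3.58 and 2.01 times lower. No direction is given there for c2 and chi1, which were 1.36 and 1.18 times higher in F1 on the B73 scale but 1.0804 and 1.25 times lower on the paired-gene scale. In the first leaf labelled L, a1 was 24.1 times lower in F1 (0.289 against 6.96) and r1 2.73 times lower. In both tip libraries of the stage 2 leaf, c2, whp1 and pr1 were lower in F1, and in the L library by 6.66 times (18.3 against 122.2), 37.4 times (0.284 against 10.6) and 4.93 times (6.01 against 29.6). At the base of the stage 2 leaf the N library was lower in F1 by 13.7 times for c2 (3.48 against 47.8), 19.1 times for whp1 and 10.01 times for pr1, while in the L library c2 was 1.58 times and chi1 6.58 times higher in F1. pl1 held 5.81 units in F1 and 5.17 in B73 in the tip labelled L. b1 was lower in F1 in 17 of 26 tissues, higher in 4 and at 0 in both in the rest, with the stem 3.53 times lower (4.74 against 16.7) and the 1 cm tassel 4.68 times lower (1.59 against 7.45). On the paired-gene scale b1 was lower in 19 tissues and higher in 2, and those folds were 6.13 and 8.58. Over the 8 members and 26 tissues, 23 of 208 values lay on the other side of B73 on that scale, and the F1 value on the B73 scale was 0.944 to 1.83 times that on the paired-gene scale.

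Across the 26 tissues the F1 profile followed that of B73 with a Pearson r of log2 values of 0.97 for pl1, 0.93 for b1, 0.92 for c2, 0.90 for chi1, 0.88 for a1 and pr1, 0.81 for r1 and 0.70 for whp1. The median over 18525 genes was 0.91. These are descriptions, and both lines share their tissues.

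Whether the organ difference itself changed between B73 and F1 was tested on per-tissue differences, with the tissue as the pair, a comparison added after the tables were seen. None of the 8 members passed, beside 7.6% of 17465 genes. b1 came nearest, with an organ difference further below 0 in B73 than in F1 by a log2 difference of -0.56 ± 0.21 (adjusted p = 0.115). It passed without the husk leaf (-0.66, adjusted p = 0.0344), with values as deposited (adjusted p = 0.0252) and with F1 scaled through paired genes (adjusted p = 0.00907), a scaling under which 8901 of 17252 genes passed. It did not pass with L and N averaged (adjusted p = 0.273), a pseudocount of 0.1 (0.246) or quantile normalization (0.114). c2 and pr1 had a larger leaf difference in B73 by 1.02 ± 0.43 (adjusted p = 0.176) and 0.71 ± 0.33 (adjusted p = 0.221).

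**Figure D4:**
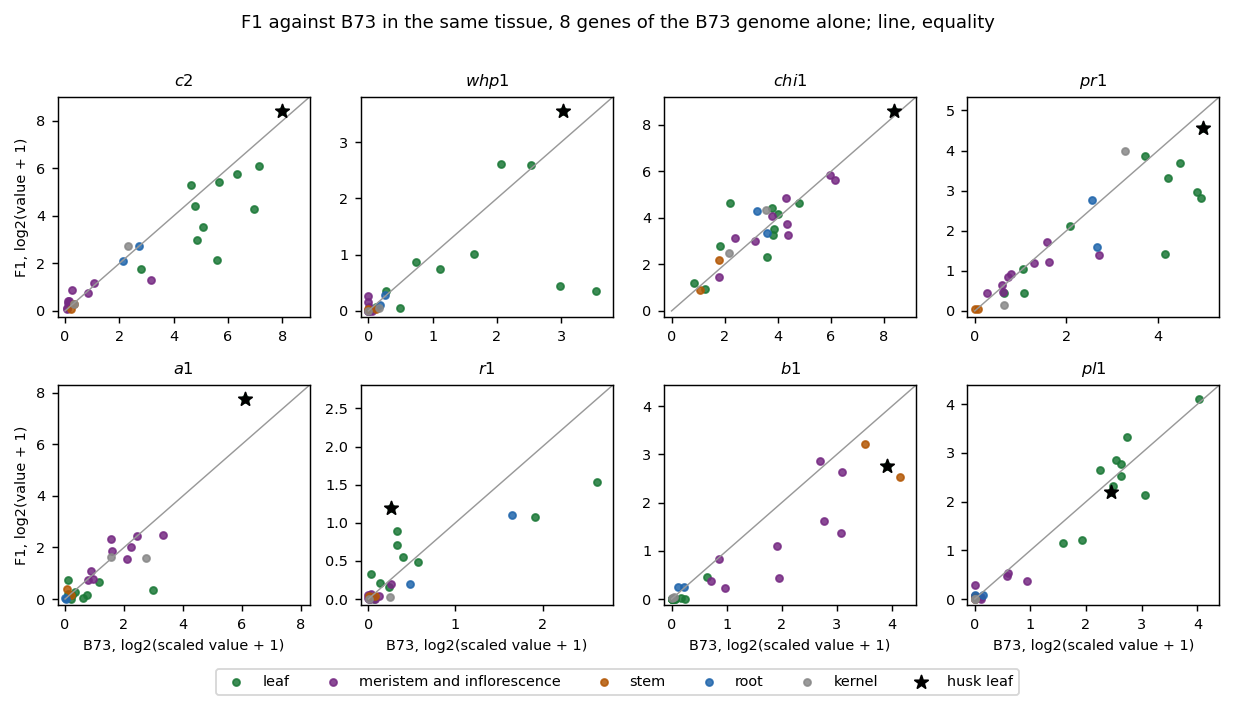
F1 (vertical) against B73 (horizontal) in the same tissue for the 8 genes listed for the B73 genome alone, as log2(value + 1) on the B73 scale; points are tissues coloured by organ, the star is the husk leaf, and the line marks equality. The star of a1 lies above the line (214.3 against 67.4 units), and several leaf points of c2, whp1 and pr1 and most stem and meristem points of b1 lie below it.

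For a2 and bz1 all 3 lines could be set side by side. The highest a2 value was the first leaf labelled L in B73 (2.50) but the endosperm in Mo17 (1.33) and in F1 (2.65), where B73 held 0.963. The V1 SAM was the highest meristem or inflorescence value of a2 in each line, at 0.641 in B73, 0.436 in Mo17 and 1.02 in F1. The embryo held 0.976 units in B73, 0.128 in Mo17 and 0.0853 in F1. In all 3 lines a2 stayed under 1 unit in at least 24 of 26 tissues.

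bz1 was above 1 unit in the husk leaf of each line, at 2.15 in B73, 1.39 in Mo17 and 2.32 in F1. The 1 cm tassel held 2.04, 0.6899 and 0.877, the embryo 1.54, 1.503 and 0.504, and the endosperm 0.547, 1.20 and 1.69. bz1 was not called between B73 and Mo17, with a median log2 difference of 0.02 (B73 higher in 15 of 26 tissues), beside 5.36% of 9213 paired genes. It was not called between F1 and the mean of its parents either, at 0.03, and neither was a2, at -0.01, beside 0.57% of 9298 genes. The organ difference of bz1 did not differ between B73 and Mo17 beyond the spread between tissues (-0.08 ± 0.17, adjusted p = 0.794), where 19.5% of 8778 genes passed. a2 was too low for the B73 and Mo17 comparisons. In Mo17 neither gene reached the minimum for the organ test, which called 73.4% of 24372 genes, or for the L and N test, which called 0% of 20211 (limma; 381 genes had an unadjusted p under 0.05).

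**Figure D5:**
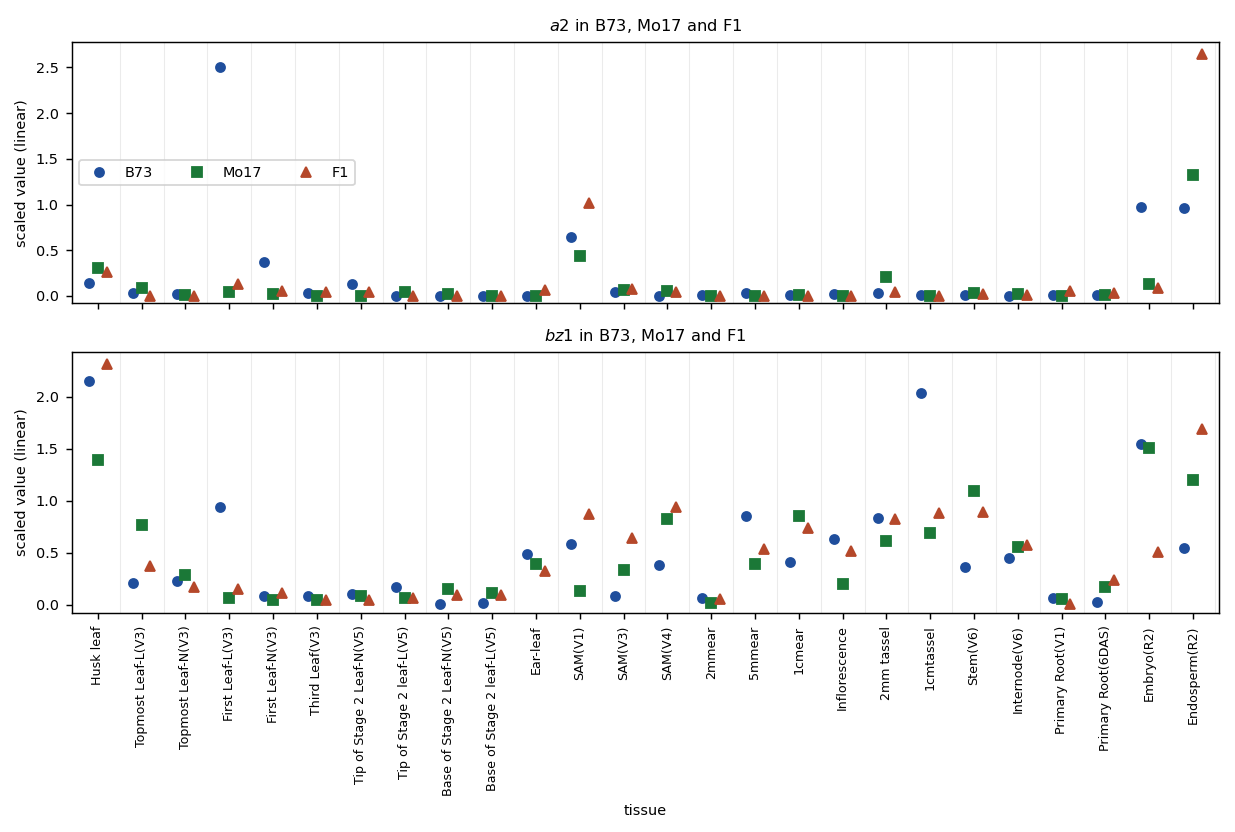
Scaled values (linear axis) of a2 (top) and bz1 (bottom) in 26 tissues of B73, Mo17 and F1, 1 library each. a2 has its highest points in the B73 first leaf (2.50) and the F1 endosperm (2.65), and bz1 is above 1 unit in the husk leaf of all 3 lines.

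The genes whose B73 profile was most like each member were ranked by Pearson r of log2 values over 26 tissues among 25444 genes, as a description in which all genes share the libraries. bz1 had a1 as its second most similar gene (r = 0.83), after Zm00001d017606 (r = 0.83), and bz1 ranked 8th for a1. Without the husk leaf the r of a1 and bz1 was 0.78. With the chalcone synthase genes the values were near 0, at -0.00 for a1 with whp1 and -0.04 for bz1 with c2, and without the husk leaf they were -0.45 and -0.29.

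Of the leaf members, c2, whp1 and pr1 ranked near each other when seen from pr1 and whp1. c2 was the 5th most similar gene to pr1 (r = 0.83) and the 16th to whp1 (r = 0.85), and whp1 was the 12th to pr1 (r = 0.82). The same identifier, Zm00001d047452, was the most similar to pr1 (r = 0.92) and the second to whp1 (r = 0.92), and Zm00001d047252 was the most similar to c2 (r = 0.96) and the second to pr1 (r = 0.87). The files give no names for these genes. Seen from c2 the ranks were lower, at 811th for whp1, 828th for pl1 (r = 0.85) and 1167th for pr1, and c2 ranked 1200th for pl1. pl1 ranked 1233rd for whp1 (r = 0.70) and 2789th for pr1 (r = 0.56). Seen from pl1, whp1 ranked 3279th and pr1 5327th. For pl1 the most similar genes were Zm00001d051093 and Zm00001d009605 (both r = 0.96).

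The other pairs of similar genes held no member. They were Zm00001d048649 (r = 0.86) and Zm00001d049551 (r = 0.84) for a1, Zm00001d025126 (r = 0.90) and Zm00001d003575 (r = 0.89) for chi1, Zm00001d049407 (r = 0.95) and Zm00001d043419 (r = 0.93) for b1, and Zm00001d035766 (r = 0.88) and Zm00001d037426 (r = 0.87) for r1. For c2 the second was Zm00001d052760 (r = 0.94), and for whp1 the first was Zm00001d041763 (r = 0.92). The r values of r1 fell to 0.49 and 0.59 in F1 for its 2 most similar genes. b1 had a negative r with c2 (-0.37), pr1 (-0.36), r1 (-0.36), pl1 (-0.36) and whp1 (-0.23). With bz1 (0.44), a1 (0.43) and chi1 (0.24) its r was positive. Without the husk leaf these were 0.31, 0.25 and 0.02, and those with c2, pr1, r1, pl1 and whp1 were -0.61, -0.57, -0.37, -0.48 and -0.46.

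Circular RNAs are rings that arise by back-splicing of an exon onto itself or onto an earlier one. The catalogue placed 4 on 3 of the 10 members, a share close to the 29.7% of all 44146 B73 identifiers that hosted at least 1. Among genes that reached 1 unit in at least 3 B73 libraries, 3 of 9 members and 50.4% of all genes were hosts. Coordinates below are those of the deposited catalogue on B73 RefGen_v4. chi1 hosted Zmcirc077024 (chr1:298581606-298582085, minus strand, 480 bp from end to end). It was above 0 in 1 library, the F1 1 cm ear, at 0.0632 RPM.

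r1 hosted Zmcirc059969 (chr10:139787480-139787952, plus strand, 473 bp), which was at 0.0636 RPM in the B73 1 cm tassel and at 0.0585 in the F1 V3 SAM. The r1 mRNA was at 0.0199 units in the former library's tissue and at 0 in the latter's. No r1 circular RNA was seen in the first leaf, where the mRNA was highest. In the B73 first leaf 3 reads were worth 0.236 (L) and 0.285 (N) RPM, above the values seen elsewhere, so nothing is drawn from that absence. b1 hosted Zmcirc044871 on the unplaced contig B73V4_ctg44 (30082 to 32452, plus strand, 2371 bp), at 0.123 RPM in the B73 internode, where b1 mRNA was at 10.4 units. The fourth, Zmcirc073281, also on b1 (29743 to 30179, 437 bp), was above 0 in no library of the tables used.

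These values were close to the smallest RPM of their libraries, which is about what 1 read is worth: 1.00 times for Zmcirc077024 and for both libraries of Zmcirc059969, and 2.00 times for Zmcirc044871. All lay under the RPM of 3 reads, which lay between 0.139 and 0.285 (B73), 0.109 and 0.300 (Mo17), or 0.148 and 0.295 (F1). A value of 0 therefore does not exclude levels up to those, and no comparison between tissues or lines was made for them.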

How the data were processed

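The mRNA tables of B73 and F1 were deposited by the authors in a unit that no label or header names (another value, neither counts nor a stated normalized unit), and the Mo17 table holds TPM as deposited. Circular RNA tables hold RPM as deposited. Per the submitters' processing notes, HISAT, StringTie, TopHat and SAMtools were used with B73 RefGen_v4, with no versions, and the circular RNA catalogue names circexplorer2 per the file headers. The sequencing depth of the mRNA libraries is unknown. In B73, 98.7% of the values of single-genome genes were whole multiples of the last of 6 decimals once multiplied by 3, within a tolerance of 0.01 of that step. The same held for 99.2% of the values of paired genes in B73 and 98.6% of those of B73-genome genes in F1. In F1, only 52.4% of the values of paired genes were, but 99.6% were once multiplied by 6, so scaling through paired genes may shift F1 genes of 1 genome; an F1 scale set through B73-genome genes was added after the data were seen.

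Each library was divided by its median ratio over 3695 genes paired in all 3 tables and at 1 or more in all 78 mRNA libraries. F1 values of the 8 members of the B73 genome alone are printed on the B73 scale, while F1 organ and leaf tests used the paired-gene scale. Two-sided tests were run in R 4.3.3 on log2(scaled value + 1) with limma 3.58.1 and its trend option. The filter kept a gene that reached 1 unit in 3 or more of the libraries compared, and p-values were adjusted after Benjamini and Hochberg at 0.05. On simulated B73 data with 200 genes changed by a log2 size of 2, the organ test found 87.5% of them among 24518 genes and the leaf pair test 79% among 20142. The simulation used independent normal noise, and the real B73 tests called far larger shares, 74.3% and 19.4% of genes. The shares found therefore do not measure the power of the real tests. The labels pair L and N by leaf position and stage. Tables and figures were made with Python 3.11.15.

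All 10 members are named, with the 2 most similar B73 genes of each that reached the minimum. The members and lists were chosen with earlier results of these data known. A list of other pathway genes (c1, bz2, fls1, p1, pac1 and others) and lists of leaf, meristem, endosperm, embryo and root markers gave no value, because no source joins those names to the identifiers, and no sequence is printed. A total RNA library of the B73 1 cm ear and a pair of 1 cm tassel tables were not used.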

Additional observations from a re-analysis of the deposited data

Results flagged for a closer look

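Gaps within a group were examined with Dixon's ratio, the gap of the highest or lowest sample to its neighbour divided by the group's range, on log2(value + 1) of the 9 meristem and inflorescence tissues and on the 4 differences of L and N for each member and line. Of 44 groups, 11 stood past the 95% critical value. Chance flags about 1 in 20 for independent normal values. These groups share their libraries and many values lie near 0, so that rate does not apply and no excess is claimed. Many of these values are under 1 unit. Among the meristem and inflorescence tissues, the V1 SAM stood above the others for a2 in B73 (ratio 0.910) and F1 (0.900), for r1 in B73 (0.540) and F1 (0.693), and for whp1 in B73 (0.5998, at 0.0382 units). The 1 cm tassel stood above the others for c2 in B73 (0.673), and the 2 mm ear below them for bz1 in F1 (0.590, at 0.0520 units). Among the leaf pairs, the first leaf had the largest L excess for a2 (0.878) and bz1 (0.880) in B73. In F1 the tip pair stood apart for whp1 (0.887, lower in L) and the base pair for b1 (1.00, the other 3 pairs being at 0). No cause was tested.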

How the results depend on the processing

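The position block could not be dropped without losing calls: with no block, genes called between L and N fell from 3901 to 731 in B73 and from 6169 to 1372 in F1, and stayed at 0 in Mo17; with no filter they were 456 and 1233. Leaving out 1 leaf position gave 1652 (first leaf), 1744 (tip) and 2289 (base) to 2951 in B73, 2055 (tip), 3718 (first leaf) and 4024 (topmost) to 4607 in F1, and 0 to 323 in Mo17 (323 without the tip, 0 otherwise). Leaving out the base pair turned chi1 to 0.22 in B73 and to -0.13 in F1, and pr1 in B73 to 0.42; whp1 in B73 turned to -0.14, -0.12 and -0.62 without the topmost, first and tip pairs, to -0.0896 as deposited and to -0.0408 with a pseudocount of 0.1. None of these reversals was a call, and the cause was not tested. With values as deposited, 5627 genes (5311 higher, 316 lower) passed between B73 and Mo17 in the organ contrast in place of 1715. There bz1 turned to 0.15, with the median of all genes at 0.60. As deposited, bz1 was also called in the Mo17 organ test (-0.59, adjusted p = 0.0163), with the median of all genes at -1.41. It otherwise enters that test only without the filter (-0.17, adjusted p = 0.369). chi1 in the F1 organ test turned to -1.13 as deposited, -0.21 without the husk leaf and -0.21 on the B73 scale. In the B73 and F1 organ contrast, paired-gene scaling called 8901 genes in place of 1327 and turned a1 to -0.17, pl1 turned to -0.00749 as deposited and -0.0432 with quantile normalization, and r1 to 0.0149 as deposited and 0.0522 without the husk leaf. Level calls between B73 and Mo17 went from 494 to 1179 as deposited, 825 with a pseudocount of 0.1 and 842 in leaf alone; with that pseudocount those of F1 against its parents went from 53 to 150 and those of F1 against B73 from 265 to 696. Of 249 test values of single members under an alternative, 223 kept their direction and side of the threshold, 17 turned, 3 lost a call and 6 gained one. Of 53 level values none was called and 52 moved by less than 1 SD between tissues; 7 changed sign, and b1 over meristem and inflorescence alone moved to -0.74. The level of bz1 in B73 beside Mo17 turned to -0.0770 as deposited. Depth is not given for mRNA, and circular RNAs here rest on about 1 or 2 reads.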
